A study of Oryza sativa with 12 samples.

Results

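A set of 68 microarray probes was examined whose signal rose under NaCl in the shoots of TNG67 rice, on every pair of arrays, while the mean signal in *OsERF106MZ*-overexpressing shoots (OE) changed little. The 68 probes were taken from 42477 probes on the array. TNG67 is a *japonica* rice cultivar. OE seedlings have the TNG67 background and carry *OsERF106MZ*, which encodes an ethylene-responsive factor, under the cauliflower mosaic virus 35S promoter, which is active in most plant tissues. Seedlings of both genotypes were grown for 7 days and then kept for 1 day with 0 or 150 mM NaCl before RNA was taken from the aerial parts. Each of the 4 groups (TNG67 at 0 and at 150 mM NaCl, OE at 0 and at 150 mM NaCl) was measured on 3 arrays. The study made 2 overexpressing lines, 1 of them with the factor fused to GFP, and the labels do not name the line on these arrays. The arrays are described as biological repeats, but the sources also speak of pooled labelled RNA and give replicates 1 and 3 the same sample number. The spread between arrays may therefore be technical in part.

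Salt in the root medium first lowers the water available to a rice seedling and then loads its shoots with sodium. Shoot cells answer partly through abscisic acid (ABA), a hormone whose signal removes a block by protein phosphatases, frees protein kinases and activates bZIP transcription factors. These factors raise genes of protective proteins, osmolyte synthesis and ion transport. Ethylene-responsive factors are a plant family of DNA-binding proteins, several of which raise or lower stress-response genes. An overexpressor with and without NaCl is used to ask whether the factor changes levels in unstressed shoots, the response to salt, or both. On these arrays the line is not named and genotype goes in part with the array slide. Differences therefore cannot be credited to the factor alone.

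The members were chosen on the deposited log2 values of all 12 arrays, pairing arrays by replicate number. A probe had to be well above background on all 12 arrays, which 31924 probes were. It had to rise by at least 0.8 on the log2 scale in each of the 3 TNG67 pairs, which left 1461 probes. The mean OE change then had to lie between -0.5 and 0.5, which left 103, and the mean of OE at 0 mM NaCl had to exceed TNG67 at 0 mM by less than 1, which left 68. A further 3 probes that the selection leaves out by name did not otherwise pass. All later values come from these same arrays. The changes of the members in each genotype, the differences between the genotypes and the interaction (the OE response minus the TNG67 response) are thus descriptions, and no test of them is offered as evidence.

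Only 7 of the 68 probes could be placed on a rice locus. The loci came from the part of the study's list of differentially expressed genes used here, which covers chromosomes 1 to 5 and was chosen on these arrays by the difference between OE and TNG67. The 7 located members are therefore weighted towards large genotype differences. They are LOC_Os01g04690, LOC_Os01g62980 and LOC_Os01g64620 on chromosome 1, LOC_Os02g57720 on chromosome 2, and LOC_Os03g03370, LOC_Os03g32470 and LOC_Os03g58300 on chromosome 3. They are given here by locus alone. The other 61 are given by their probe number (CUST). The green-tissue and root marker genes that would check the shoot label had no located probe, so the tissue was not checked here.

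Most probes chosen for their TNG67 change also had a higher mean with NaCl in OE. Of the 1461 probes with the TNG67 rise, 1355 had a mean OE change above 0.5 and 3 a mean OE change below -0.5. The OE change over the 1461 probes had quartiles of 0.92, 1.45 and 2.21 on the log2 scale, and the median TNG67 change was 1.56. The 103 probes with an OE mean within the limits were 7.05% of the 1461. With the genotypes exchanged, 1900 probes rose by at least 0.8 in all 3 OE pairs, and 215 of these (11.3%) had a mean TNG67 change within the same limits. A near-flat mean in the other genotype was thus also found for probes induced in OE, and in a larger share, a difference that was not tested.

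**Figure D1:**
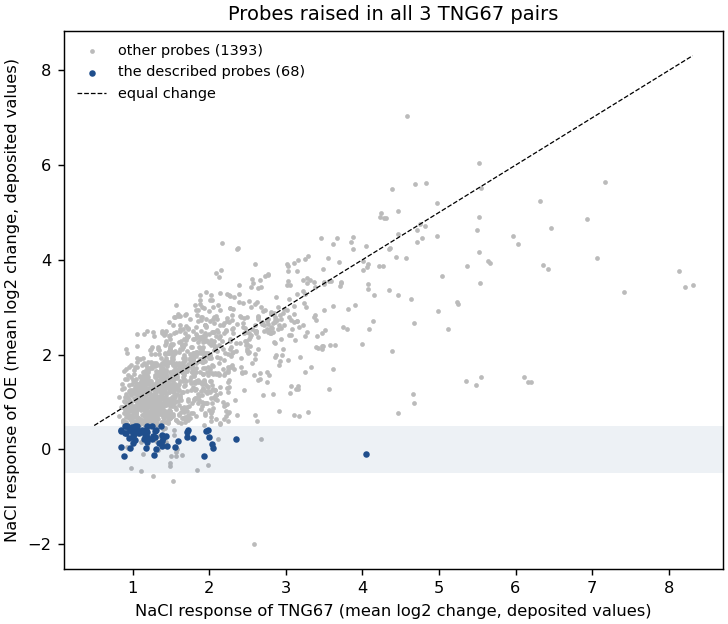
Mean NaCl change in TNG67 (x axis, log2) against that in OE (y axis, log2), in the deposited values, for the 1461 probes that rose by at least 0.8 in each TNG67 pair. Points are probes, blue points are the 68 members, the shaded band marks OE means between -0.5 and 0.5 and the dashed line marks equal change. The members are the lower edge of a continuous cloud, and 35 grey probes in the band were left out because OE exceeded TNG67 by 1 or more at 0 mM NaCl.

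The members lay at the edge of that cloud rather than apart from it. Just inside the limit on the smallest TNG67 pair were CUST_6921 at 0.805 and CUST_36032 at 0.810, and just outside it CUST_27349 at 0.798 and CUST_40409 at 0.796. At the upper limit on the OE mean, CUST_25878 (0.498) and CUST_34963 (0.497) stood inside and CUST_21963 (0.503) and CUST_8374 (0.507) outside. The lower limit cut through a gap, with CUST_32412 and CUST_37679 inside at -0.15 and CUST_4896 (-0.56) and CUST_40306 (-0.67) outside. At the limit on OE against TNG67 at 0 mM NaCl, CUST_11 (0.99) and CUST_25878 (0.97) were inside and CUST_9092 and CUST_32057 (both 1.02) outside. Within 0.1 of a limit lay 27 members for the TNG67 pair, 17 for the OE mean and 8 for the genotype difference at 0 mM NaCl.

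All further changes are given on background-corrected, quantile-normalized log2 signals, in which a difference of 1 is a doubling. The members were spread over the whole range of brightness, with mean log2 signals from 5.54 (CUST_6437) to 15.4 (CUST_36032) and a median of 9.94, against 9.92 over all probes well above background on the 12 arrays. The median change of the 68 probes under NaCl in TNG67 was 1.20, with a range from 0.54 to 3.92, and the median over all 37144 probes tested was -0.02. In this comparison 45 of the 68 passed an adjusted p under 0.05 with a change above 2-fold, a threshold passed upwards by 4.96% of all probes. The 3 NaCl arrays lay above the 3 arrays without NaCl for 61 members, and for 19.5% of all probes. The selection fixed this direction.

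In OE the median change was 0.30, with a range from -0.19 to 0.68, and the median over all probes was -0.06. None of the 68 passed the same threshold in OE in either direction, by limma or by the methods' t-test. Nor did any at an unadjusted p under 0.05 with a change above 2-fold. The OE limits of the selection all but fixed these counts, so they are no result about the members. Of all probes, 6.18% passed upwards and 3.64% downwards in limma's test. The fitted OE change was above 0 in 63 of the 68 and below 0 in 5, and above 0 in 45.4% of all probes. The selection bounded this mean on both sides, so its sign is a description. For 18 members the 3 OE arrays with NaCl lay above the 3 without, which 21.7% of all probes did, and for 0 members they lay below, which 22.8% of all probes did. That the members were induced in TNG67 alone is thus a matter of where the limits were set, and a lack of response in OE was not shown.

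The difference between the responses itself, the interaction, had a median of -0.87 and ran from -4.03 to -0.32. It was below 0 for all 68 because the selection required a large change in one genotype and a small one in the other. Of the 68, 2 passed the threshold, against 0.0592% of all probes with an interaction below 0. These were LOC_Os01g62980 and CUST_32487. With the replicate number as a block 4 passed, with slide as a fixed block 10, with replicates 1 and 3 averaged 0, and with 1 array left out 0 to 4. None passed in the other direction, which 0.035% of all probes did.

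Without NaCl most members had a higher mean in OE than in TNG67. The selection capped that excess below 1 in the deposited values, so few could pass the threshold. At 0 mM NaCl the median difference of OE from TNG67 was 0.45, with OE higher for 63 members and lower for 5, while the median over all probes was 0.01 and 51.3% of them were above 0. The 3 OE arrays lay above the 3 TNG67 arrays for 26 members (16.5% of all probes) and below them for 1 (17.3% of all probes), CUST_7805. With 150 mM NaCl the median difference was -0.42, with OE lower for 56 and higher for 12, while 48.4% of all probes were above 0. All OE arrays lay below the TNG67 arrays for 28 members at 150 mM NaCl, which 12.3% of all probes did. These comparisons share arrays with the responses above (the TNG67 arrays without NaCl enter both the response and the difference at 0 mM), and the selection used them all.

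The order of the group means summarises the pattern. The selection set TNG67 at 150 mM above TNG67 at 0 mM and limited the OE values, so these orders are descriptions. They were not counted over all probes. For 47 of the 68 probes the means rose from TNG67 at 0 mM, through OE at 0 mM and OE at 150 mM, to TNG67 at 150 mM NaCl. In 12 more, OE at 150 mM was highest and TNG67 at 0 mM lowest. TNG67 at 0 mM NaCl gave the lowest mean for 62 members and TNG67 at 150 mM the highest for 56. Both OE means lay between the TNG67 means for 50 members. The OE level without NaCl stood, at the median, 37.9% of the way from the untreated to the treated TNG67 level. The untreated TNG67 mean enters both parts of that percentage, and the selection used it too.

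**Figure D2:**
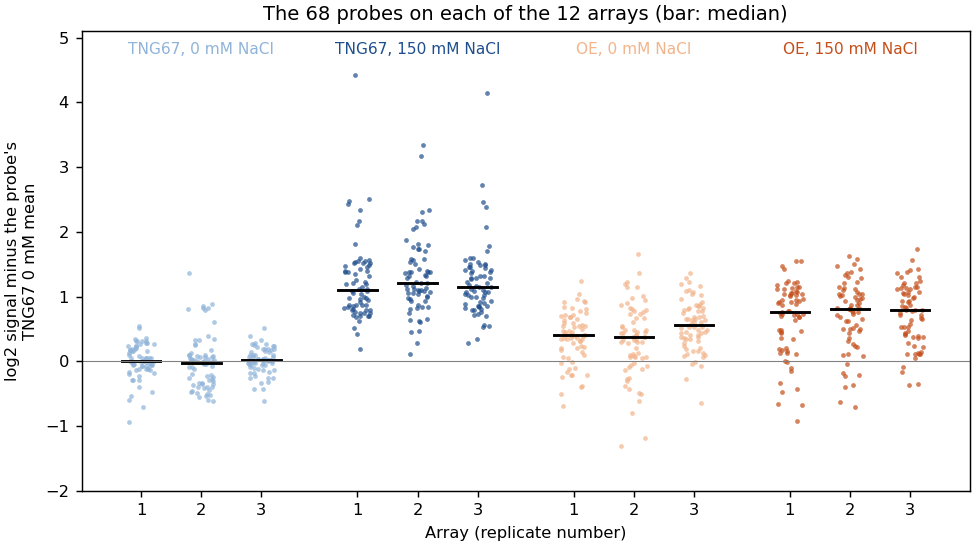
Log2 signal of each of the 68 probes on each of the 12 arrays, less the mean of that probe over the 3 TNG67 arrays at 0 mM NaCl (y axis), with arrays by group and replicate number on the x axis. Points are probes and bars are medians. The medians are 1.102, 1.209 and 1.147 on the treated TNG67 arrays, 0.41, 0.38 and 0.56 on the untreated OE arrays and 0.76, 0.81 and 0.80 on the treated OE arrays.

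The medians of the 3 arrays of a group lay close together. Relative to the mean of the untreated TNG67 arrays, the medians over the 68 probes were 0.01, -0.03 and 0.02 on those arrays themselves, and 1.102, 1.209 and 1.147 on the treated TNG67 arrays. On the OE arrays they were 0.41, 0.38 and 0.56 without NaCl and 0.76, 0.81 and 0.80 with it. The 4 groups did not overlap in these medians. The selection fixed the separation of the TNG67 groups and used the OE arrays too, so this is a description. Seen by pair, the medians of the TNG67 response were 1.12, 1.24 and 1.11 and those of the OE response 0.35, 0.39 and 0.23.

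The arrays were on 3 slides, and the slides bear on the genotype comparisons. Replicates 1 and 3 of TNG67 shared slide 1 and those of OE shared slide 2, while replicate 2 of all groups was on slide 3, scanned on another day. Each NaCl response was therefore measured within a slide, but the genotypes can be compared within a slide only on slide 3. There the median OE difference was 0.35 at 0 mM NaCl and -0.48 at 150 mM NaCl, beside 0.38 and 0.59 (0 mM) and -0.31 and -0.38 (150 mM) for the pairs of replicates 1 and 3. The direction of both medians was the same within slide 3 as between slides. The selection used the arrays of slide 3 too, so this is a description and no check on the slides. Replicates 1 and 3 of a group correlated at 0.9925 to 0.996 across probes and either of them with replicate 2 at 0.965 to 0.9826. Median spot signals ran from 315.5 to 814.5 and on each array 79.3% to 88% of probes stood well above background.

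A small mean in OE covered different behaviour of single pairs. For 30 of the 68 members the 3 OE pairs did not share a sign, and for 22 all 3 pairs lay between -0.5 and 0.5. An OE pair reached 0.8 or more for 5 members and -0.8 or less for 3. In the deposited values the number of members above 0.5 was 22 in pair 1, 24 in pair 2 and 5 in pair 3. The clearest case was LOC_Os01g64620, whose deposited OE changes were -0.80, 1.19 and -0.84. CUST_24299 changed by -0.20, 1.47 and -0.06 in OE, and CUST_8331 by 1.03, -0.21 and 0.41. These probes entered the set through an average of unlike pairs. OE pairs 1 and 3 were on slide 2 and pair 2 was on slide 3.

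LOC_Os01g62980 had the clearest separation among the located members. Its log2 signals were 11.31, 11.10 and 11.02 on the untreated and 13.25, 13.22 and 12.93 on the treated TNG67 arrays. In OE they were 11.60, 11.52 and 11.65 without and 11.91, 11.96 and 11.53 with NaCl. All 6 OE arrays lay above the untreated and below the treated TNG67 arrays, and the OE groups overlapped. The change was 1.99 ± 0.15 (SE, n = 3 arrays a group), or 3.97-fold, in TNG67 and 0.21 ± 0.15 in OE. The interaction was -1.78 ± 0.22, and OE was lower than TNG67 by -1.33 ± 0.15 on the log2 scale at 150 mM NaCl.

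**Figure D3:**
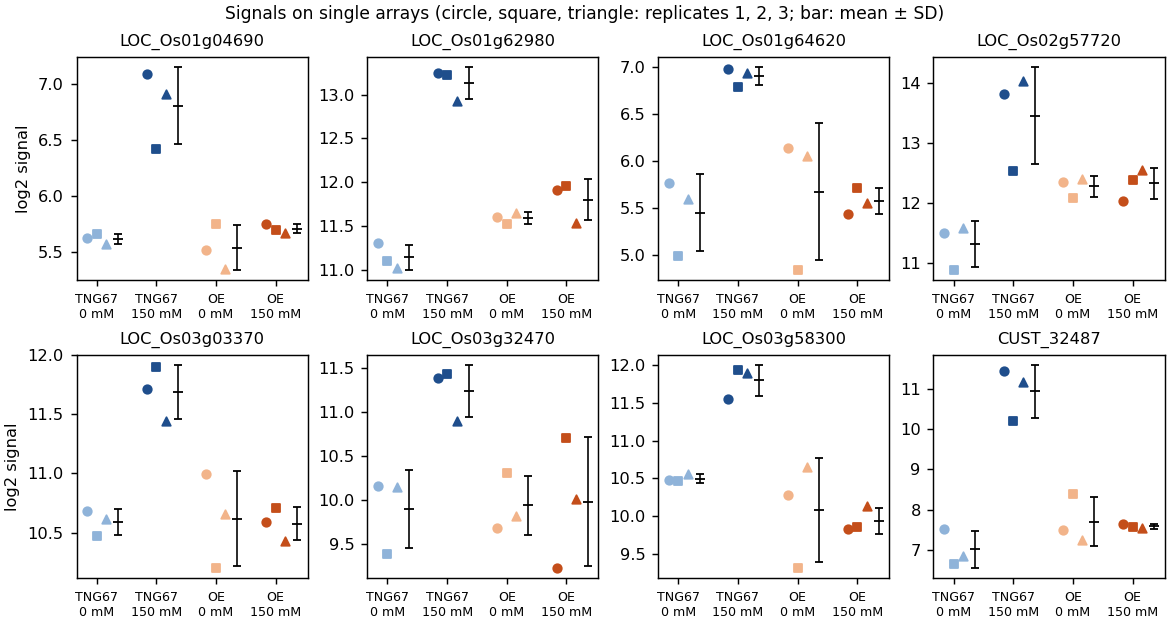
Log2 signal (y axis, a range of its own in each panel that does not start at 0) of the 7 located members and of CUST_32487 in the 4 groups (x axis). Circles, squares and triangles are replicates 1, 2 and 3, and bars are the mean ± SD of 3 arrays. The treated TNG67 arrays stand above the other 9 in every panel except that of LOC_Os02g57720, in which replicate 2 (12.53) lies below the highest treated OE array (12.55).

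LOC_Os02g57720 showed the largest TNG67 rise of the located members, with less agreement between arrays. The untreated TNG67 arrays read 11.49, 10.87 and 11.57 and the treated ones 13.81, 12.53 and 14.03. The OE arrays read 12.35, 12.08 and 12.40 without NaCl and 12.04, 12.39 and 12.55 with it, all above the untreated TNG67 arrays. The change was 2.15 ± 0.35 in TNG67 and 0.05 ± 0.35 in OE, and the untreated OE mean was 0.97 ± 0.35 above that of TNG67. On replicate 2 the TNG67 level after NaCl was only just above that of OE.

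The lowest signals among the located members were those of LOC_Os01g64620 and LOC_Os01g04690. LOC_Os01g64620 read 5.76, 4.99 and 5.59 without and 6.97, 6.79 and 6.93 with NaCl in TNG67, and 6.13, 4.84 and 6.05 without and 5.44, 5.71 and 5.55 with NaCl in OE. Both genotypes had a low replicate 2 without NaCl, so its OE pairs ran in opposite directions. LOC_Os01g04690 read 5.63, 5.66 and 5.57 and then 7.08, 6.42 and 6.91 in TNG67, and 5.52, 5.75 and 5.35 and then 5.75, 5.70 and 5.67 in OE. Its 6 OE arrays and its untreated TNG67 arrays lay within 5.35 to 5.75, and only the treated TNG67 arrays stood apart.

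LOC_Os03g58300 was the located member with the lowest OE level relative to TNG67. Its signals were 10.47, 10.46 and 10.56 before and 11.55, 11.93 and 11.89 after NaCl in TNG67, and 10.28, 9.32 and 10.66 before and 9.83, 9.86 and 10.14 after NaCl in OE. OE after NaCl lay below all TNG67 arrays, treated or not. OE differed from TNG67 by -0.41 ± 0.28 at 0 mM NaCl and by -1.85 ± 0.28 at 150 mM NaCl. LOC_Os03g03370 had nearly equal untreated levels in the genotypes, 10.68, 10.47 and 10.62 in TNG67 and 11.00, 10.20 and 10.65 in OE. With NaCl it read 11.71, 11.90 and 11.44 in TNG67 and 10.59, 10.71 and 10.43 in OE, and the groups did not overlap.

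LOC_Os03g32470 stood for a group of 4 probes with nearly the same profile. It read 10.16, 9.39 and 10.15 without and 11.38, 11.43 and 10.90 with NaCl in TNG67, and 9.68, 10.31 and 9.82 without and 9.23, 10.70 and 10.01 with NaCl in OE. The treated OE arrays lay far apart, with replicate 1 lowest and replicate 2 highest. CUST_647, CUST_15619 and CUST_34635 correlated with it at 0.993, 0.987 and 0.995 over the 12 arrays, as a description. Whether the 4 probes share a transcript was not examined, and they are not counted as separate genes here. Similarly close were CUST_24015 and CUST_3390, which differed by at most 0.17 on any array, CUST_17794 and CUST_4204 (r = 0.983), and CUST_11954 with CUST_2575 (r = 0.994) and with CUST_2922 (r = 0.981). Over all 2278 pairs of members the median r was 0.65, with a range from -0.27 to 0.997. The arrays share the contrast by which the members were chosen, so a positive median was built in.

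Among the members without a locus, CUST_32487 had by far the largest change. Its signals were 7.54, 6.67 and 6.85 on the untreated and 11.45, 10.20 and 11.16 on the treated TNG67 arrays, a change of 3.92 ± 0.36, or 15.1-fold. In OE it read 7.49, 8.39 and 7.25 without and 7.66, 7.58 and 7.55 with NaCl, a change of -0.12 ± 0.36. The treated TNG67 arrays stood clear above every other array, and untreated OE overlapped untreated TNG67. Its deposited OE changes of 0.13, -0.81 and 0.39 did not share a sign.

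The next largest interactions without a locus were those of CUST_422 (-1.89), CUST_37272 (-1.80), CUST_1796 (-1.59) and CUST_7805 (-1.53). CUST_1796 was bright, with 12.32, 12.10 and 11.83 and then 14.26, 14.39 and 13.78 in TNG67, and 12.44, 12.41 and 12.62 and then 13.12, 12.95 and 12.79 in OE. It is one of the 18 members whose treated OE arrays all lay above the untreated ones, by 0.46 ± 0.19 in the mean. CUST_7805 read 8.45, 7.82 and 8.39 and then 10.55, 9.61 and 10.30 in TNG67. In OE it read 7.53, 6.92 and 7.58 and then 7.88, 7.51 and 7.85, a change of 0.41 ± 0.28 that did not pass, from a lower start, and the OE groups overlapped. CUST_422 read 5.78, 6.99 and 5.74 and then 8.60, 8.34 and 7.61 in TNG67, against 5.79, 6.46 and 6.26 and then 5.70, 6.89 and 6.28 in OE. CUST_37272 read 7.70, 6.53 and 7.22 and then 9.64, 7.99 and 9.53 in TNG67, and 7.54, 8.13 and 7.75 and then 7.58, 8.52 and 7.62 in OE. For this last probe the treated groups overlapped, since replicate 2 was low in TNG67 and high in OE.

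**Figure D4:**
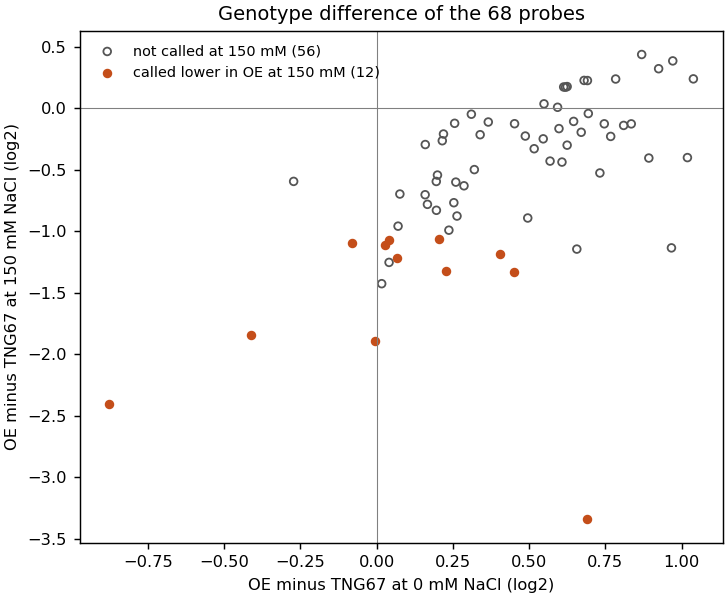
Difference of OE from TNG67 at 0 mM NaCl (x axis, log2) against the difference at 150 mM NaCl (y axis, log2) for the 68 probes. Filled points are the 12 members that passed the threshold at 150 mM NaCl. Of the 68, 63 lie right of 0 and 12 lie above 0, and CUST_32487 is the point at -3.34.

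Different members passed the threshold between the genotypes with and without NaCl. At 150 mM NaCl 12 passed the threshold with OE lower, against 1.42% of all probes, and at 0 mM NaCl 2 passed with OE higher, against 2.06% of all probes. The cap of the selection on OE at 0 mM NaCl left few able to pass there with OE higher. The required TNG67 rise with a small OE change favoured OE below TNG67 at 150 mM NaCl. Neither count, nor the split between them, is therefore a result about the members. None passed with OE higher at 150 mM NaCl (1.93% of all probes) or with OE lower at 0 mM NaCl (2.3% of all probes). The limits of the selection together kept OE less than 2-fold above TNG67 at 150 mM NaCl in the deposited values. The count with OE higher there was thus all but fixed. The 12 were LOC_Os01g04690, LOC_Os01g62980, LOC_Os01g64620, LOC_Os03g03370, LOC_Os03g58300, CUST_32487, CUST_7805, CUST_1796, CUST_422, CUST_22198, CUST_647 and CUST_15619. The 2 were CUST_11 and CUST_25878, neither of which was among the 12. Their differences at 0 mM NaCl were 1.02 and 1.04 here, but 0.99 and 0.97 in the deposited values, just under the cap. With replicates 1 and 3 averaged, 0 passed in either condition. CUST_11 read 8.42, 7.66 and 8.08 and then 9.61, 9.44 and 9.38 in TNG67, while OE read 9.01, 8.93 and 9.28 without and 8.77, 9.27 and 9.17 with NaCl. Its OE arrays lay between the TNG67 groups in both conditions.

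For the 12 members with a higher treated mean in OE than in TNG67, the smaller OE response started from a higher level. CUST_17794 read 7.74, 7.90 and 7.96 and then 8.61, 8.85 and 8.85 in TNG67, and 8.64, 8.53 and 9.03 and then 9.33, 9.01 and 9.29 in OE. OE without NaCl was thus at 8.73 ± 0.26 (SD, n = 3), beside 8.77 ± 0.14 for TNG67 with NaCl. CUST_36032, the brightest member, read 14.87, 14.28 and 14.53 and then 16.09, 15.21 and 16.01 in TNG67, and 15.48, 14.94 and 15.61 and then 16.12, 15.61 and 16.30 in OE. Its OE response was 0.66, beside 1.21 in TNG67. In shoots as whole tissue, a lower level in each cell and fewer cells with the transcript cannot be told apart.

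Some probes outside the set had nearly the same profile. The 5 that followed the members' median most closely over the 12 arrays were CUST_3161 (r = 0.971), CUST_6710 (0.966), CUST_27647 (0.956), CUST_17634 (0.955) and CUST_11789 (0.954). The first 2 stayed outside because their smallest TNG67 changes were 0.41 and 0.50, and the others because their mean OE changes were 0.77, 0.81 and 0.81. Thus the limits divided probes of like shape.

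The ABA and salinity response was examined through a list of 29 genes, of which 8 had a located probe, placed through the same list of differentially expressed genes. None of the 8 was a member, but only 4 of them were well above background on all 12 arrays, as membership required, and the rest of the 29 could not be looked for among the 61 members without a locus. In TNG67, 5 of the 8 were raised by NaCl and in OE 7, with median changes of 2.82 and 3.30, beside 4.96% and 6.18% of all probes, and none fell. None of the 8 passed the interaction test. Being located through that list, the 8 are not a neutral sample of the 29.

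*OsABI5*, a bZIP factor of the ABA response, read 5.48, 6.002 and 4.56 and then 7.01, 8.16 and 6.54 in TNG67, and 7.72, 6.56 and 7.69 and then 10.39, 10.17 and 9.60 in OE. Its change was 1.89 ± 0.49 in TNG67 (adjusted p = 0.0198, limma) and 2.73 ± 0.49 in OE (adjusted p = 0.00273, limma). *OsHOX24*, a homeodomain-leucine zipper gene, rose by 5.97 ± 0.63 in TNG67 (adjusted p = 0.00029, limma) and by 5.51 ± 0.63 in OE (adjusted p = 0.000315, limma). *OsSRO1c*, related to *RADICAL-INDUCED CELL DEATH* genes, rose by 4.64 ± 0.61 and 4.48 ± 0.61 (adjusted p = 0.000832 and 0.000718, limma). The sodium transporter gene *OsHKT1.1* changed by 0.92 ± 0.25 in TNG67 and rose by 1.03 ± 0.25 in OE (adjusted p = 0.0246 and 0.0126, limma), only the latter above 2-fold. *OsMAIF1*, an F-box protein gene, rose by 1.90 ± 0.48 in OE (adjusted p = 0.0143, limma) and changed by 1.36 ± 0.48 in TNG67 (adjusted p = 0.0633, limma), with only 1 of the 3 untreated arrays of each genotype well above background. LOC_Os01g50910 and LOC_Os03g16170 rose in both genotypes, by 6.22 ± 1.07 and 3.75 ± 0.64 in TNG67 and by 3.87 ± 1.07 and 4.58 ± 0.64 in OE. Of the 3 untreated TNG67 arrays, LOC_Os01g50910 was well above background on 1, and *OsABI5* and *OsHOX24* on 2. Their TNG67 changes thus start near background and are less certain in size. *OsNAC006* changed by 0.03 ± 0.18 in TNG67 and by -0.11 ± 0.18 in OE. The 5 listed genes that rose in TNG67 all rose in OE.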

How the data were processed

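Each RNA sample was labelled with Cy3 and hybridized to an Agilent 4 × 44 K rice array. The authors deposited the scanner output of Feature Extraction 10.7.1.1, in which signal and local background are an intensity per spot, together with log2 processed signals from which each array's and each probe's constant had been subtracted. No authors' fold change was used. The members were chosen on the deposited log2 values, and members and gene lists were chosen with earlier results of these data known.

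Median spot signals of all spots were corrected with normexp (offset 0). The 1417 control spots and any spots flagged as outliers were then left out, and the rest quantile-normalized. Spots of the same probe were averaged. A mean per group, without a block, was fitted with limma 3.58.1 in R 4.3.3. Background correction, normalization and limma follow the study's methods. The restriction to 37144 probes that stood well above background on 3 or more arrays was added here. Passing required a Benjamini-Hochberg adjusted p under 0.05 and more than 2-fold. The fit was also run on simulated arrays with independent noise and changes added to treated TNG67 only. These had no slide or replicate effect, so that run cannot speak to such effects in the real arrays. No spot was saturated, and the number of arrays limits the precision. OE arrays without NaCl share 1 replicate number in their source names, so titles were used. Deviations of same-numbered arrays correlated at 0.171 to 0.68 in all 4 comparisons, and a blocked fit by replicate number was run as an alternative. Slide 3 holds every replicate 2, so number and slide cannot be told apart there. The correlations therefore do not show that arrays pair by number.

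Text names every located member, the 5 others with the most negative interaction, the probes next to each limit and listed genes that passed. Members named for other reasons were chosen after their values were seen. Sequences and promoter motifs were not analysed here.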

Additional observations from a re-analysis of the deposited data

Results flagged for a closer look

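The responses of the genotypes differed by limma's interaction test for 2 members, both of which had been chosen for a difference of this kind on the same arrays. For LOC_Os01g62980 the OE response minus the TNG67 response was -1.78 on the log2 scale, and the call was lost in 5 of the 12 fits that left out 1 array (replicate 3 of TNG67 at 0 mM NaCl, replicate 1 of TNG67 at 150 mM, replicates 1 and 3 of OE at 0 mM, and replicate 1 of OE at 150 mM). For CUST_32487 it was -4.03, and the call was lost in 8 of the 12, the same 5 and those without replicate 3 of TNG67 at 150 mM or replicate 2 or 3 of OE at 150 mM. The value itself stayed between -1.88 and -1.65 for LOC_Os01g62980 and between -4.40 and -3.69 for CUST_32487 in those fits.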

How the results depend on the processing

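The size of the set depended on its limits, and the number of members that passed depended on the fit. A minimum of 1 in every TNG67 pair left 27 of the 68 probes and OE limits of -0.3 and 0.3 left 33. Leaving out a replicate gave 140 (replicate 3), 151 (replicate 1) or 228 (replicate 2) probes, of which 54, 60 and 54 were among the 68. With the same limits on quantile-normalized signals 79 probes passed, 45 of them among the 68. Members passing in TNG67 numbered 45, but 13 with replicates 1 and 3 averaged and 15 by the methods' t-test, and 37 to 46 with 1 array left out. For OE above or below TNG67 at 0 mM NaCl, 2 passed, but 0 with an offset of 50, with replicates averaged or by the methods' t-test, 1 with the 75th percentile shift, the deposited values or no filter, 4 with slide as a fixed block, and 0 to 2 with 1 array left out (0 without OE at 0 mM replicate 3). At 150 mM NaCl 12 passed, but 0 with replicates averaged or by the methods' t-test, and 6 to 15 with 1 array left out (6 without TNG67 at 150 mM replicate 1, 7 without OE at 150 mM replicate 1). For the interaction 2 passed, but 10 with slide as a fixed block, 11 as a random block, 0 with replicates averaged, and 4 with the replicate block, which added CUST_1796 and CUST_7805. With 1 array left out, 0 to 4 passed: 0 without replicate 3 of TNG67 at 0 mM, replicate 1 of TNG67 at 150 mM, replicate 1 or 3 of OE at 0 mM or replicate 1 of OE at 150 mM, 1 without replicate 2 or 3 of OE at 150 mM, and 4 without replicate 2 of TNG67 at 150 mM. In OE 0 members passed in every such fit, which the OE limits of the selection all but fixed. The replicate block gave 49, 0, 2 and 13 members in the other 4 comparisons. The median TNG67 change was 1.08 with an offset of 50, and the median OE change on slide 3 alone was 0.39. Of the ABA and salinity list, 2 (TNG67) and 3 (OE) genes passed with replicates averaged. The same numbers passed with only probes above background on all 12 arrays, a filter that left 4 of the 8 located genes to be counted. With 1 array left out, 4 to 6 (TNG67) and 5 to 7 (OE) passed. LOC_Os03g32470 lost its TNG67 call without TNG67 at 0 mM replicate 2 or TNG67 at 150 mM replicate 1 or 2, and LOC_Os03g03370 without the last of these. Apart from the genes removed by that filter, the cause of these shifts was not tested. Direction was followed for the located members and the 5 others with the most negative interaction, in the TNG67 change and the interaction only. Neither reversed with a replicate or slide block or with 1 array left out, but the selection had fixed both directions. The direction of single members in OE and between the genotypes was not followed.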
